A study of Mus musculus with 6 samples.

Results

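The 32 genes described here make, sense, move and dispose of cholesterol in the hippocampus of the newborn mouse. They were taken by gene name from the deposited table of normalized read counts, in which all 32 were found among 24935 genes, and all 32 were among the 17778 genes tested (mean value of at least 10). Of these, 18 encode enzymes of cholesterol synthesis, 5 encode the factors that sense sterol in the endoplasmic reticulum, and 9 encode proteins that export cholesterol, carry it within the cell or turn it over, together with the nuclear receptors that control export. The comparison was that of hyperoxia-exposed with air-exposed mice.

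The brain makes nearly all of its own cholesterol, because lipoproteins of the blood do not cross the blood-brain barrier. Synthesis starts from acetyl-CoA, runs through mevalonate and the isoprenoid diphosphates to squalene, closes squalene into lanosterol, and trims lanosterol to cholesterol. When membranes of the endoplasmic reticulum are low in sterol, SCAP carries the SREBP transcription factors to the Golgi, where they are cut and released, and when sterol is plentiful INSIG proteins hold them back. Oxysterols activate the liver X receptors, which raise transcription of the exporters ABCA1 and ABCG1 and of apolipoprotein E, the main lipid carrier that astrocytes secrete. Oligodendrocytes need much cholesterol for myelin during the postnatal weeks studied here, and neurons dispose of excess cholesterol as 24-hydroxycholesterol.

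All mice were C57BL/6 pups of both sexes, and the left hippocampus was taken from each at postnatal day 14 (P14). Air-exposed mice (n = 3) stayed in room air, and hyperoxia-exposed mice (n = 3) were kept with their dams in 85% oxygen at normal pressure from P2 to P14. The sample titles name no transgene and no other treatment in either group. The name of a second deposited table, however, carries the word oil for both groups. Whether these mice received oil is unknown, and an effect of it was not tested. PolyA RNA of the whole tissue was sequenced as strand-specific libraries, 1 per mouse, so that in every value below fewer cells of a type and less RNA per cell cannot be told apart. The deposited columns name the group and a number from 1 to 3 that is not an animal number. Directions therefore follow the group named in each column, and libraries are called air 1 to 3 and hyperoxia 1 to 3. The mRNA changes that the study prints for other genes, Slc17a7 and Fasn among them, have the opposite sign to the difference between these columns. Here the log2 fold change was -0.34 for Slc17a7 and 0.23 for Fasn, and the study's values for both are of nearly the same size. The study's CA1 staining of the myelin protein CNPase, weaker in hyperoxia, runs the same way as most oligodendrocyte markers of these whole-hippocampus RNA columns. Cnp, the gene of that protein, did not itself pass in limma (log2 fold change -0.30, adjusted p = 0.125), and its groups overlapped. The study's CA1 staining of GFAP was stronger in hyperoxia, while Gfap RNA did not pass in limma (log2 fold change 0.06, adjusted p = 0.732). The study also lists less FASN and CSPG4 protein in hyperoxia. In these columns Fasn and Cspg4 RNA (log2 fold change 0.41 for Cspg4) were called higher in hyperoxia. Protein and mRNA changes did not always run the same way in the study. Which direction is right could not be settled from the files, and every higher and lower given here would turn round if the group names of the columns were exchanged.

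Between 30384052 and 38746972 reads lay on genes per library. Air and hyperoxia libraries separated along principal component 1 of the log2 values (52.7% of the variance), and hyperoxia library 2 stood apart from the rest along component 2 (19.5%). The 10 most abundant genes took 10.4% of the reads in hyperoxia library 2, against 8.21% and 7.74% in hyperoxia libraries 1 and 3 and 10.5% to 10.9% in the air libraries. Xist was high and Y-linked genes were near 0 in 1 library of each group, so that each group held 1 library with a female pattern, which bears on the X-linked Nsdhl and Ebp. Markers of neurons, astrocytes and oligodendrocytes were present in every library.

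The promoters of 5 genes are shown because they hold, in varying number, the short sequences through which this pathway is known to be controlled. The windows come from RefSeq (GRCm38.p6) and hold the 250 bases before the start site. Of the 32 genes, 26 matched an entry, with 37 start sites in all, and Fdps, Fdft1, Sqle, Abcg1, Stard4 and Npc1 had none. The synthesis genes Hmgcs1 (chr13:119690101-119690350, plus strand), Mvk (chr5:114444019-114444268, plus strand), Pmvk (chr3:89454291-89454540, plus strand) and Lss (chr10:76531355-76531604, plus strand) and the exporter Abca1 (chr4:53159896-53160145, minus strand) are given 5′ to 3′ on the strand of the gene. Capitals mark the core of the sterol regulatory element bound by SREBP (TCACNCCAC), the CCAAT box bound by NF-Y (CCAAT, or ATTGG on the other strand) and the E-box (CACGTG).
Hmgcs1: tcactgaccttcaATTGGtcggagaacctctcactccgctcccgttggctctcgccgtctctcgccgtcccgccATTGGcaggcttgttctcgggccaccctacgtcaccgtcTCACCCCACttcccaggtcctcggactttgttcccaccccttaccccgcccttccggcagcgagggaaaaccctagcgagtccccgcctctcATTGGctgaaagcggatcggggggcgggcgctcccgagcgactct
Mvk: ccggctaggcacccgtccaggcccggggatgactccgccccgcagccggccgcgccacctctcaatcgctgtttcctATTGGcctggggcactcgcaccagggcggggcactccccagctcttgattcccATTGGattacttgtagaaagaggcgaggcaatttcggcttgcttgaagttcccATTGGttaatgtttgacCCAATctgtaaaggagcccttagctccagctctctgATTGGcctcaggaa
Pmvk: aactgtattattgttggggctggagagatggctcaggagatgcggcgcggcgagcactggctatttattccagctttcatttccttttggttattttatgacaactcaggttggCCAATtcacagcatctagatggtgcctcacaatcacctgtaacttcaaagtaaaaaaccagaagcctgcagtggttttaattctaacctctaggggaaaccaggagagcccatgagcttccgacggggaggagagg
Lss: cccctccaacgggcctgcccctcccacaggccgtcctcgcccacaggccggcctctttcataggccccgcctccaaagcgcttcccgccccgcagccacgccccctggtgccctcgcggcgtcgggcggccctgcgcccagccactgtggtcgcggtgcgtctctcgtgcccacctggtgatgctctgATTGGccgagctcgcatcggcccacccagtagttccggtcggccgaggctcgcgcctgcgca
Abca1: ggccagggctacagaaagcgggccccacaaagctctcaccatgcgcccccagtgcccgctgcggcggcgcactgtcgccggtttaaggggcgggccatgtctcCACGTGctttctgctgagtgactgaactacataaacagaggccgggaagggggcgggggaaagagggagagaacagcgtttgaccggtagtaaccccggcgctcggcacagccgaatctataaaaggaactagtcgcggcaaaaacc
Hmgcs1 held the sterol regulatory core, which began 137 bases before the start site, and 3 CCAAT boxes. Mvk held 5 CCAAT boxes, Pmvk and Lss held 1 each, and Abca1 held an E-box and no CCAAT box. Pmvk has another start site, not shown, whose window (chr3:89459321-89459570) held none of these marked motifs.

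Motifs were counted on both strands from 250 bases before to 50 bases after the start site. The CCAAT box stood in at least 1 window of 14 of the 15 synthesis genes with an entry, Acat2 being the exception. By window this was 77.8% of 18, against 37.4% of the 32851 windows of all genes. The Sp1 box (GGGCGG) stood in 83.3% of the synthesis windows and 35.7% of all windows. The E-box stood in 16.7% of the synthesis windows and 7.15% of all windows. Only 22.2% of the 9 windows of the handling genes held a CCAAT box. The sterol regulatory core in these exact letters was found in Hmgcs1 alone, in 1 of the 37 windows, against 1.24% of all windows. None of the 4 motifs contains another. Such matches describe the letters of these windows and do not show binding, and the lack of a match says nothing about SREBP at a gene.

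Hyperoxia-exposed mice differed from air-exposed mice most in 2 genes of cholesterol handling. Abca1, the exporter that loads cholesterol onto apolipoproteins, was 1.92-fold higher, and Stard4, a carrier that moves cholesterol between membranes, was also 1.92-fold higher. Nr1h3, which encodes liver X receptor alpha, was 1.68-fold lower. The synthesis enzymes moved less and in both directions, with 4 higher (Idi1, Sqle, Lss and Tm7sf2, between 1.20-fold and 1.31-fold) and Pmvk 1.45-fold lower. Among the sterol sensors, Srebf1 and Insig1 were higher.

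By limma with adjustment over all genes tested, 10 of the 32 genes passed the threshold of 0.05, which is 31.25%, against 30.5% of all 17778 genes. The share of sterol genes that changed was thus close to that of all genes. Of the 32 genes, 8 were called higher, where 14.9% of all 17778 genes were, and 2 of the 32 were called lower, where 15.6% of all genes were. Without adjustment 16 of the 32 genes and 7594 of all genes had p below 0.05. In 14 of the 32 genes the 3 hyperoxia values lay wholly above (10) or wholly below (4) the 3 air values, and this was so for 46.1% of all genes, 22.3% above and 23.8% below. The median log2 fold change was -0.06 for synthesis and -0.10 for handling, beside -0.01 for all genes, while the medians of these lists in a single library varied by 0.08 and 0.07 (SD within groups). By edgeR and by DESeq2 the same 10 sterol genes passed, where 30.9% and 31.6% of all genes did, and by limma without its mean-variance trend 6 of them passed, where 23.8% of all genes did. Under quantile normalization 9 of the 32 genes passed, where 30.2% of all genes did, and after correction for length and GC content 11 passed, where 31.4% did, with 8 of the 10 genes called under each. The smallest p of an exact permutation test with 3 mice per group is 0.1, so only the fit across all genes was used.

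**Figure D1:**
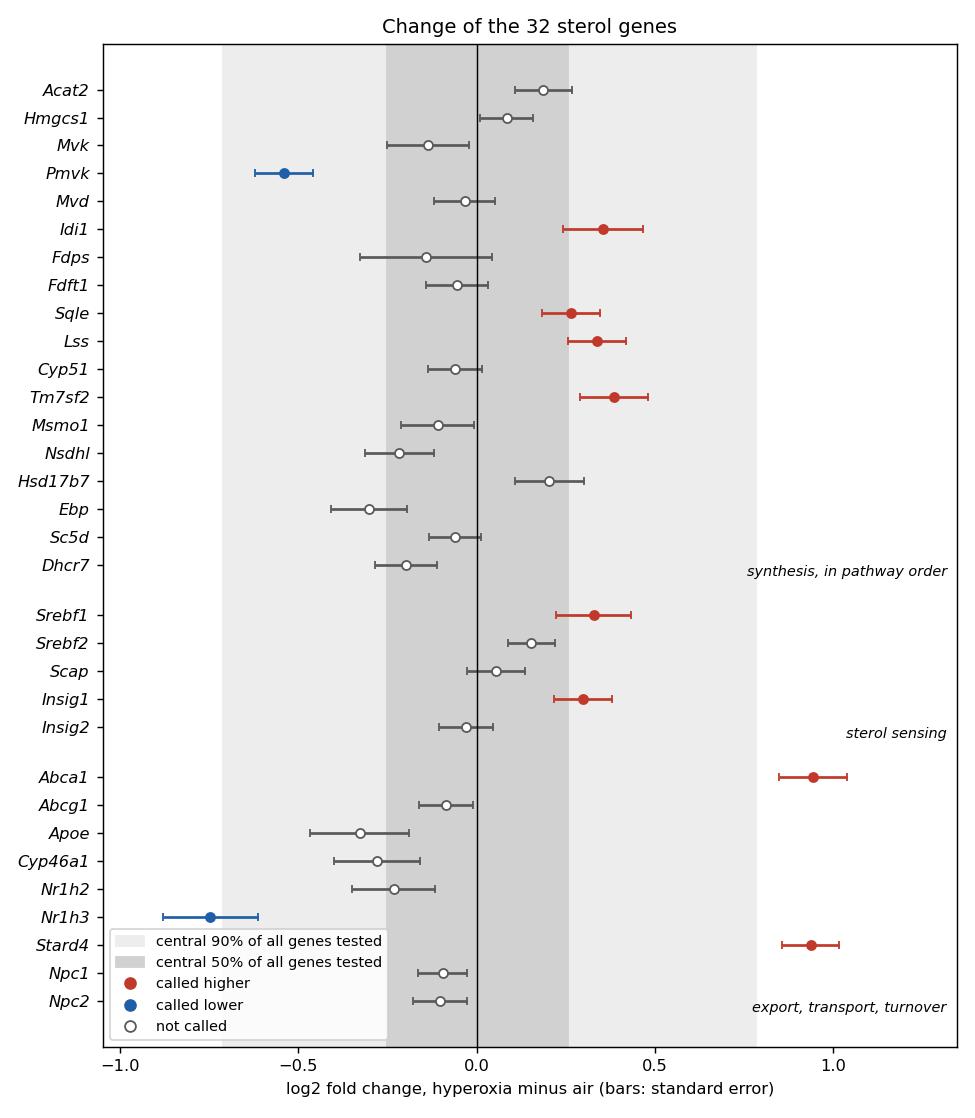
Log2 fold change (x axis, hyperoxia minus air, on log2 of the normalized count plus 1, bars are standard errors, n = 3 per group) of the 32 genes (y axis, synthesis in pathway order from the top, then sterol sensing, then handling). Filled points passed the test, and the grey bands hold the central 50% and 90% of the 17778 genes tested. Abca1 and Stard4 (both 0.94) lie right of both bands and Nr1h3 (-0.75) lies left of them, while most synthesis genes lie within the inner band.

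Synthesis was followed in the order of the pathway. In the steps from acetyl-CoA to the decarboxylation of mevalonate diphosphate, 1 of 5 genes changed. Pmvk, phosphomevalonate kinase (ENSMUSG00000027952.16, chr3:89454541-89469013 of GRCm38), had normalized read counts of 1903, 1927 and 1774 across air libraries 1 to 3, and 1234, 1405 and 1220.0 across hyperoxia libraries 1 to 3. Every hyperoxia library lay below every air library. The means were 1868 ± 82.4 (SD, n = 3) for air and 1286 ± 103 (SD, n = 3) for hyperoxia (log2 fold change -0.54, SE 0.08, adjusted p = 0.00178). This fall was called in all 16 alternative settings, with log2 fold changes of -0.61 to -0.50 when single libraries were left out. It was smaller after correction for length and GC content (log2 fold change -0.36, adjusted p = 0.00229). No stretch of 50 bases of the longest Pmvk transcript occurred in a transcript of another gene, and shorter Pmvk transcripts were not checked.

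Hmgcs1, HMG-CoA synthase of the cytosol and the synthesis gene with the most reads, had normalized read counts of 17001, 18276 and 17869.8 across air libraries 1 to 3, and 18079.6, 18411 and 19876 across hyperoxia libraries 1 to 3. The groups overlapped, with hyperoxia library 3 the highest of the 6. The means were 17716 ± 651 (SD, n = 3) for air and 18789 ± 956 (SD, n = 3) for hyperoxia, and the difference did not pass the test (log2 fold change 0.08, SE 0.07, adjusted p = 0.411). Acat2, which joins acetyl-CoA units, lay above air in all 3 hyperoxia libraries without passing (log2 fold change 0.19, adjusted p = 0.105), and passed after correction for length and GC content (adjusted p = 0.0147). In the longest Acat2 transcript, 45.9% of the 50-base stretches also occur in other genes (Acat3 and Tcp1), so the reads of Acat2 are uncertain. The kinase Mvk (log2 fold change -0.14, adjusted p = 0.398) and the decarboxylase Mvd (log2 fold change -0.03, adjusted p = 0.791) did not pass, and their groups overlapped. Pmvk, which acts between these last 2 enzymes, thus differed from air by more than its neighbours in size, although the differences between genes were not tested.

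Of the 2 genes that lead from isopentenyl diphosphate to farnesyl diphosphate, Idi1 was higher. Idi1, isopentenyl diphosphate isomerase, had normalized read counts of 301, 344 and 356 across air libraries 1 to 3, and 462, 380.4 and 441 across hyperoxia libraries 1 to 3. All hyperoxia values lay above all air values, with only a small gap between hyperoxia library 2 and air library 3. The means were 334 ± 28.8 (SD, n = 3) for air and 428 ± 42.5 (SD, n = 3) for hyperoxia (log2 fold change 0.36, SE 0.11, adjusted p = 0.0382). The call was lost on leaving out any single library but hyperoxia 2 (adjusted p from 0.0623 to 0.148), at log2 fold changes from 0.28 to 0.44 over all 6 omissions, and also under quantile normalization (adjusted p = 0.0517) and limma without the trend (adjusted p = 0.0658). Stretches shared with other genes, pseudogenes among them, made up 30.5% of the longest Idi1 transcript, counted in 50-base stretches. Fdps, farnesyl diphosphate synthase, had only 47 to 82 reads per library and did not pass (log2 fold change -0.14, adjusted p = 0.592). An annotated gene on the same strand covers 26.7% of the Fdps exons, so that this low count is uncertain.

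Among the 3 genes that build squalene and close it into lanosterol, 2 were higher. Sqle, squalene epoxidase, the first oxygen-requiring enzyme of the pathway, had normalized read counts of 2307, 2431 and 2141 across air libraries 1 to 3, and 2677, 2613 and 2984 across hyperoxia libraries 1 to 3. The hyperoxia values were all above the air values, and hyperoxia library 3 was the highest. The means were 2293 ± 146 (SD, n = 3) for air and 2758 ± 199 (SD, n = 3) for hyperoxia (log2 fold change 0.27, SE 0.08, adjusted p = 0.0336). The Sqle call, too, was lost without any single library other than hyperoxia 2 (adjusted p from 0.0602 to 0.135), with log2 fold changes from 0.21 to 0.31. It was lost as well with limma without the trend (adjusted p = 0.0822) and after correction for length and GC content (adjusted p = 0.0501).

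Lss, lanosterol synthase, had normalized read counts of 1305, 1477 and 1455 across air libraries 1 to 3, and 1666, 1804 and 1883 across hyperoxia libraries 1 to 3. The groups did not overlap. The means were 1412 ± 93.2 (SD, n = 3) for air and 1784 ± 109.7 (SD, n = 3) for hyperoxia (log2 fold change 0.34, SE 0.08, adjusted p = 0.0130), and the gene was called in 14 of the 16 alternative settings, the exceptions being the fit without air library 1 (adjusted p = 0.0678) and the one corrected for length and GC content (adjusted p = 0.194). Fdft1, squalene synthase, which commits farnesyl diphosphate to sterols, did not pass (log2 fold change -0.06, adjusted p = 0.655). Fdft1 overlaps Ctsb on the opposite strand over 18.3% of its exons, and Ctsb had more reads, so its value depends on whether strand was used in counting.

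After lanosterol, 1 of 8 genes changed. Tm7sf2, which encodes a C14-sterol reductase, had normalized read counts of 602, 644 and 569.8 across air libraries 1 to 3, and 764, 879.7 and 735 across hyperoxia libraries 1 to 3. All hyperoxia values lay above all air values, and hyperoxia library 2 was the highest. The means were 605 ± 37.3 (SD, n = 3) for air and 793 ± 76.4 (SD, n = 3) for hyperoxia (log2 fold change 0.39, SE 0.10, adjusted p = 0.0145), with loss of the call when air library 1 or air library 3 was omitted (adjusted p from 0.0586 to 0.0642). Tm7sf2 shares 12.1% of its exon bases with Vps51 on the same strand, where reads cannot be assigned to 1 gene. Lbr, the other gene for this reductase activity, was not called (log2 fold change 0.21, adjusted p = 0.254).

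The other genes of this stretch pointed mostly the other way without passing. Cyp51, the lanosterol demethylase (log2 fold change -0.06, adjusted p = 0.574), and Sc5d, the sterol C5-desaturase (log2 fold change -0.06, adjusted p = 0.566), were close to air. Msmo1, which with Nsdhl removes the C4 methyl groups, had a negative difference that did not pass (log2 fold change -0.11, adjusted p = 0.448), and so had Nsdhl itself (log2 fold change -0.22, adjusted p = 0.118). Dhcr7, which catalyses a last step to cholesterol, did not pass either (log2 fold change -0.20, adjusted p = 0.108). Ebp, the sterol isomerase, lay below air in all 3 hyperoxia libraries and just missed the threshold (log2 fold change -0.30, adjusted p = 0.0585). Hsd17b7, the ketoreductase of C4 demethylation, was the only uncalled gene after lanosterol with a positive difference (log2 fold change 0.20, adjusted p = 0.138).

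In the sterol-sensing group 2 of 5 genes were higher. Srebf1, which encodes the SREBP-1 proteins that act mainly on fatty acid genes, had normalized read counts of 1075, 1072 and 1119 across air libraries 1 to 3, and 1308, 1616 and 1207 across hyperoxia libraries 1 to 3. The air libraries lay close together and below every hyperoxia library, of which hyperoxia 2 was far the highest. The means were 1088 ± 26.6 (SD, n = 3) for air and 1377 ± 213 (SD, n = 3) for hyperoxia (log2 fold change 0.33, SE 0.11, adjusted p = 0.0416), with the call lost without any of the air libraries or hyperoxia library 1 (adjusted p from 0.0782 to 0.129) and a log2 fold change of 0.21 without hyperoxia library 2. The Srebf1 call was also lost under quantile normalization (adjusted p = 0.0532) and limma without the trend (adjusted p = 0.0985). Insig1, which encodes a retention factor and is itself an SREBP target, had normalized read counts of 1408, 1569 and 1406 across air libraries 1 to 3, and 1807, 1676 and 1914 across hyperoxia libraries 1 to 3. Its groups did not overlap. The means were 1461 ± 93.5 (SD, n = 3) for air and 1799 ± 119 (SD, n = 3) for hyperoxia (log2 fold change 0.30, SE 0.08, adjusted p = 0.0215), and the call was lost without air 1, air 3, hyperoxia 1 or hyperoxia 3 (adjusted p from 0.0522 to 0.0936) and with limma without the trend (adjusted p = 0.0584).

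Srebf2, the SREBP that acts mainly on cholesterol genes and the most read of the sensing genes, had normalized read counts of 7898, 7594 and 7790.2 across air libraries 1 to 3, and 8769, 8852 and 8285 across hyperoxia libraries 1 to 3. The hyperoxia values were all above the air values by a small margin. The means were 7761 ± 154 (SD, n = 3) for air and 8636 ± 306 (SD, n = 3) for hyperoxia, which did not pass the test (log2 fold change 0.15, SE 0.07, adjusted p = 0.104). It passed under quantile normalization (adjusted p = 0.0470) and after correction for length and GC content (adjusted p = 0.0281). Scap, the escort of the SREBPs (log2 fold change 0.06, adjusted p = 0.634), and Insig2 (log2 fold change -0.03, adjusted p = 0.792) did not pass, and their groups overlapped. The 2 INSIG genes, which share a function, thus had differences of 0.30 and -0.03 on the log2 scale, and the difference between them was not tested.

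In cholesterol handling 3 of 9 genes changed, and these held the largest differences of all 32. Abca1 (ENSMUSG00000015243.4, chr4:53030787-53159895 of GRCm38) had normalized read counts of 1141, 1156 and 1224 across air libraries 1 to 3, and 2297, 1978 and 2532 across hyperoxia libraries 1 to 3. Each hyperoxia library lay far above each air library, and the spread among hyperoxia libraries, with library 2 the lowest, was wider than that among air libraries. The means were 1174 ± 43.9 (SD, n = 3) for air and 2269 ± 278 (SD, n = 3) for hyperoxia (log2 fold change 0.94, SE 0.10, adjusted p = 0.000406). Of all genes tested, 5.55% had a larger difference in either direction. The call held in all 16 alternative settings, and leaving out single libraries gave log2 fold changes from 0.86 to 1.04.

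Abcg1, the exporter that passes cholesterol to lipoproteins already carrying lipid, behaved otherwise. It had normalized read counts of 1415, 1506 and 1491 across air libraries 1 to 3, and 1491, 1320.1 and 1350.3 across hyperoxia libraries 1 to 3. The groups overlapped, and the difference did not pass (log2 fold change -0.09, SE 0.08, adjusted p = 0.422). Abca1 and Abcg1, both known targets of the liver X receptors, therefore differed from air by 0.94 and by -0.09 on the log2 scale.

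Of the 2 liver X receptor genes, Nr1h3 fell. Nr1h3 (ENSMUSG00000002108.10, chr2:91184061-91202834 of GRCm38) had normalized read counts of 144, 157 and 162 across air libraries 1 to 3, and 94.6, 96.2 and 84.0 across hyperoxia libraries 1 to 3. No hyperoxia library reached the lowest air library. The means were 154 ± 9.29 (SD, n = 3) for air and 91.6 ± 6.65 (SD, n = 3) for hyperoxia (log2 fold change -0.75, SE 0.13, adjusted p = 0.00350), from 85 to 158 reads per library, and the fall was called in all 16 alternative settings. Nr1h2, liver X receptor beta, had normalized read counts of 1764, 1646 and 1620.0 across air libraries 1 to 3, and 1335, 1732 and 1253 across hyperoxia libraries 1 to 3. Hyperoxia library 2 lay among the air libraries and the other 2 hyperoxia libraries lay below them, and the difference did not pass (log2 fold change -0.23, adjusted p = 0.154).

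Apoe, the apolipoprotein and the most abundant of the 32 genes, had normalized read counts of 69154, 67126 and 63885 across air libraries 1 to 3, and 49062, 67529 and 45257 across hyperoxia libraries 1 to 3. Hyperoxia libraries 1 and 3 lay below every air library and hyperoxia library 2 lay within the air range. The means were 66722 ± 2658 (SD, n = 3) for air and 53949 ± 11913 (SD, n = 3) for hyperoxia, and the difference did not pass (log2 fold change -0.33, SE 0.14, adjusted p = 0.102). Without hyperoxia library 2 it passed (log2 fold change -0.50, adjusted p = 0.000419), so that 1 library decided the call.

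Among the genes for transport and turnover within the cell, Stard4 was the gene that changed. It had normalized read counts of 509, 537 and 486 across air libraries 1 to 3, and 1014, 968 and 956 across hyperoxia libraries 1 to 3. The 3 hyperoxia values lay close together and far above the 3 air values. The means were 511 ± 25.9 (SD, n = 3) for air and 979 ± 30.7 (SD, n = 3) for hyperoxia (log2 fold change 0.94, SE 0.08, adjusted p = 0.000279). The call held in all 16 alternative settings, and log2 fold changes ran from 0.90 to 0.98 when single libraries were left out. Unlike Abca1 and Srebf1, the gene had nearly the same value in hyperoxia library 2 as in the other hyperoxia libraries.

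Npc1 (log2 fold change -0.10, adjusted p = 0.316) and Npc2 (log2 fold change -0.10, adjusted p = 0.334), which pass cholesterol out of the lysosome after lipoprotein uptake, did not pass the test. After correction for length and GC content Npc1 was lower (log2 fold change -0.29, adjusted p = 0.0217). Cyp46a1, the neuronal cholesterol 24-hydroxylase, had normalized read counts of 7474, 6490.2 and 6798 across air libraries 1 to 3, and 6166, 6448 and 4638 across hyperoxia libraries 1 to 3. All hyperoxia values lay below all air values, by a very small margin for hyperoxia library 2. The difference did not pass (log2 fold change -0.28, adjusted p = 0.106), and it did pass without hyperoxia library 2 (log2 fold change -0.37, adjusted p = 0.0172).

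**Figure D2:**
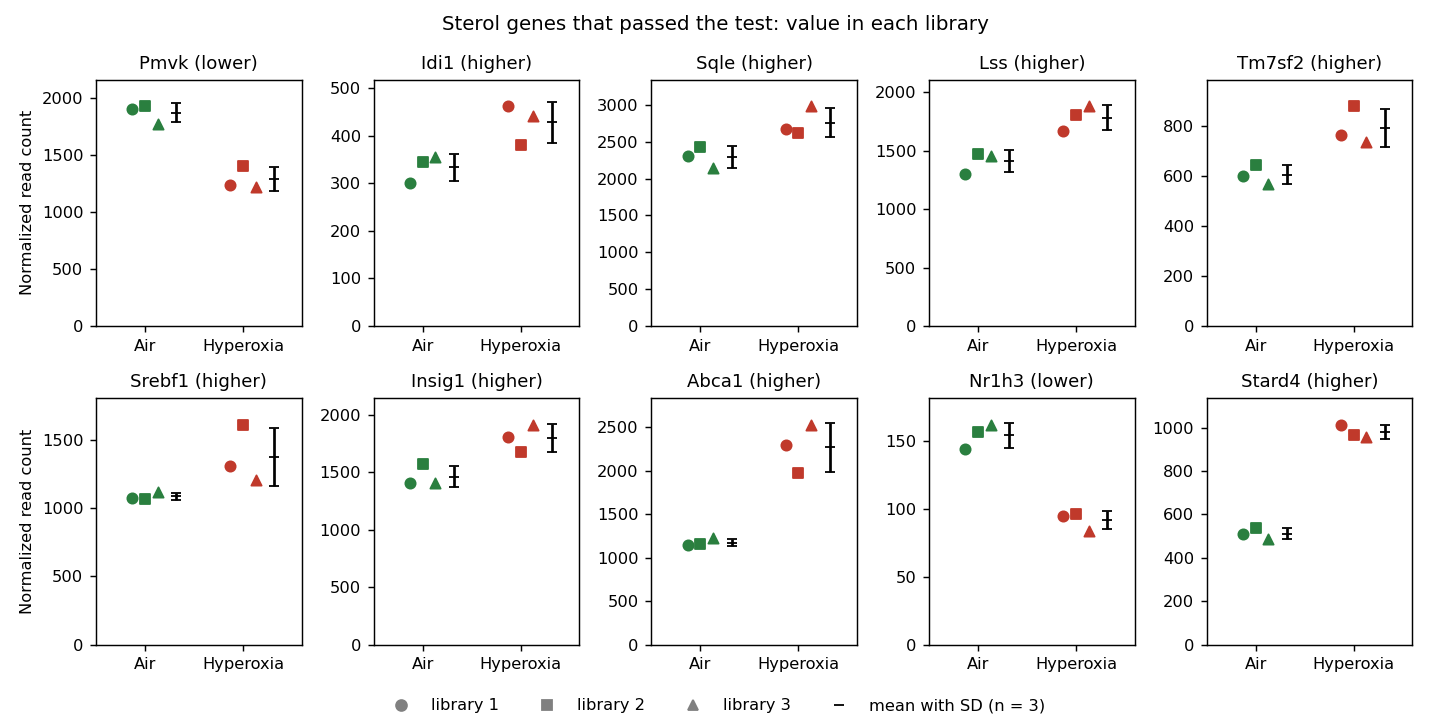
Normalized read counts (y axis, from 0) of the 10 genes that passed the test, 1 panel per gene, in the 3 air libraries (green) and the 3 hyperoxia libraries (red), with the marker shape giving the library number and black bars the mean with SD (n = 3). The groups do not overlap in any panel, and the gap relative to the level is widest for Stard4 and Abca1.

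Hyperoxia library 2 was set against the mean of hyperoxia libraries 1 and 3 on the log2 scale. Of the 2, hyperoxia library 2 lay nearer the air mean for 21 of the 32 genes (65.6%), and for 54.0% of all genes tested. When it was left out, 19 of the 32 genes passed (59.4%), 9 higher and 10 lower, against 43.6% of all genes, 21.6% higher and 22% lower. These 19 genes included all 10 of the full comparison. Synthesis then had 11 of 18 genes called, 5 higher and 6 lower, as Hsd17b7 joined the higher genes and Mvk, Msmo1, Nsdhl, Ebp and Dhcr7 joined the lower ones. The values in that comparison were, for example, those of Dhcr7 (log2 fold change -0.28, adjusted p = 0.00452) and Nsdhl (log2 fold change -0.31, adjusted p = 0.00779). Handling had 6 of 9 genes called, as Apoe, Cyp46a1 and Nr1h2 joined the lower genes, and sterol sensing still had 2 of 5. Leaving out air library 1 instead left 4 of the 32 genes (Pmvk, Abca1, Nr1h3 and Stard4), with 17.1% of all genes called.

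**Figure D3:**
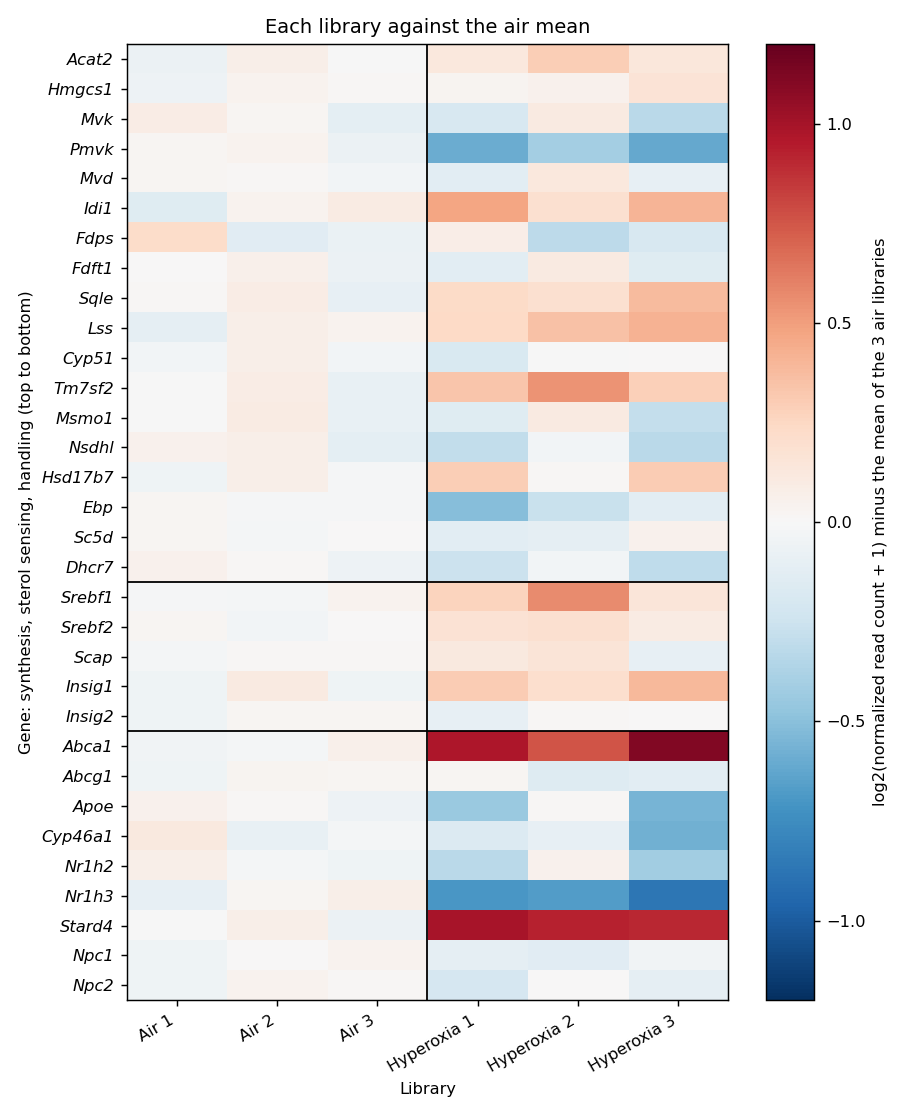
Log2 of the normalized read count plus 1 in each library (columns) minus the mean of the 3 air libraries, for the 32 genes (rows), on a colour scale from blue (lower) to red (higher). Abca1 and Stard4 are red and Nr1h3 and Pmvk blue in all 3 hyperoxia libraries, while Mvk, Msmo1, Apoe and Nr1h2 are blue in hyperoxia libraries 1 and 3 and near white or faintly red in hyperoxia library 2.

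The genes differed widely in level. Per kilobase of exon, with all annotated exons of a gene merged, the mean normalized read count of Apoe was 31208 in air and 25234 in hyperoxia. Hmgcs1 followed with 3856 in air and 4089.8 in hyperoxia, and Cyp46a1 with 2106 in air and 1749 in hyperoxia. Pmvk (1091 in air) and Srebf2 (1080.3 in air) were next and did not differ in air beyond their spread, and in hyperoxia Pmvk dropped to 751 per kilobase. Abca1 (113 in air and 219 in hyperoxia) and Stard4 (91.4 in air and 175 in hyperoxia) were among the lower genes in air, and both rose past Lss in hyperoxia. The lowest levels were those of Nr1h3 (61.4 in air and 36.4 in hyperoxia) and Fdps (15.8 in air and 14.3 in hyperoxia). Merged exon length lowers the value of genes with many rare exons, such as Lss, so the order holds on this scale only.

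**Figure D4:**
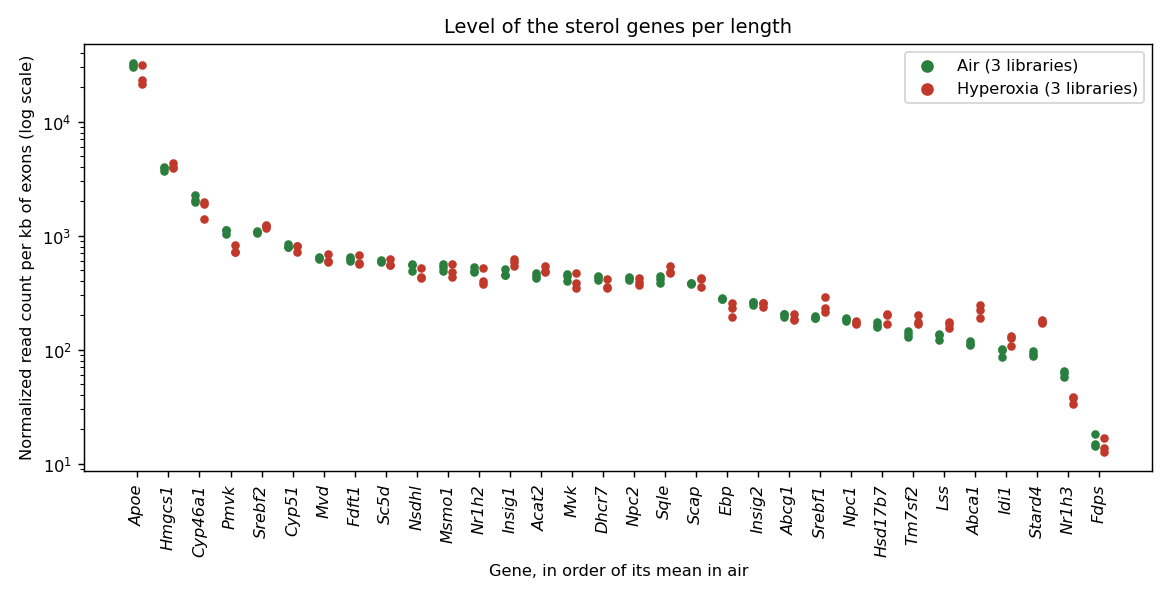
Normalized read count per kilobase of merged exons (y axis, log scale) of the 32 genes (x axis, ordered by the mean in air), with each of 3 air libraries (green) and 3 hyperoxia libraries (red) as a point. Apoe lies far above the rest, and Abca1, Stard4 and Nr1h3 show the clearest separation of the groups.

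Other genes of lipid metabolism were counted from 6 lists, beside the 30.5% of all genes called. In the processing of SREBP and its regulators, 2 of 7 genes were higher and none was lower. In the isoprenoid side branch, which leads to prenylated proteins, dolichol and ubiquinone, 3 of 10 were higher and none was lower, led by Pggt1b, a subunit of a protein prenyltransferase (log2 fold change 0.96, adjusted p = 0.00707). Of 13 genes of fatty acid synthesis, 7 were higher and 1 was lower. Acaca, acetyl-CoA carboxylase, was the highest of them (log2 fold change 0.38, adjusted p = 0.00595), and Acsl3, a fatty acid activating enzyme, was the lower gene (log2 fold change -0.50, adjusted p = 0.00332).

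Of 14 genes of sterol transport and esterification, 4 were higher and 3 lower. Osbpl1a, an oxysterol-binding protein relative, rose most (log2 fold change 0.65, adjusted p = 0.00397), and Lcat, which esterifies cholesterol on lipoproteins, fell most (log2 fold change -0.56, adjusted p = 0.00692). Of 14 genes of lipoprotein uptake and export, 5 were higher and 4 lower, with Abca3, a lipid transporter (log2 fold change 0.45, adjusted p = 0.00723), and Apod, apolipoprotein D (log2 fold change -0.63, adjusted p = 0.00640), at the ends. Among the oxysterol enzymes 4 of 6 could be tested and 1 was lower, the side-chain cleavage enzyme gene Cyp11a1 (log2 fold change -0.45, adjusted p = 0.0162). The median log2 fold change of these lists was 0.08, 0.05, 0.22, 0.07, 0.16 and -0.26 in the order given.

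Markers of cell types that use these genes were counted too, beside the 30.5% of all genes called, 14.9% higher and 15.6% lower. Of 10 oligodendrocyte markers 9 were lower and none higher, and their summed normalized counts were 220072 to 334223 in air and 151226 to 184332 in hyperoxia, with air library 1 the lowest of air. Of 8 astrocyte markers 3 were higher and 2 lower, with sums of 204640 to 214786 in air and 240375 to 258429 in hyperoxia. The higher astrocyte sum lay mostly in the glutamate transporter gene Slc1a2, with means of 104640 in air and 149380 in hyperoxia, while the median log2 fold change of the 8 markers was 0.01. Of 6 endothelial markers 4 were higher and none lower, with sums of 6413 to 6655 in air and 8210.2 to 9434 in hyperoxia. Of 6 microglial markers 2 were higher and none lower, and these 33.3% were close to the share of all genes called. The microglial sums were 8881 to 8963 in air and 9943 to 10707 in hyperoxia. 

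Of 5 oligodendrocyte precursor markers 2 were higher and 1 lower, with sums of 19980.2 to 23248 in air and 20657 to 22308 in hyperoxia. Of 8 neuronal markers 2 were higher and 3 lower, with sums of 216534 to 222169 in air and 214787 to 220394 in hyperoxia. None of 6 choroid plexus markers was called, and their sums were 722 to 1578 in air and 606 to 8296 in hyperoxia. No marker was at 0 in any library. The oligodendrocyte sum was lower in every hyperoxia library than in any air library, as Pmvk and Nr1h3 were. The endothelial, microglial and astrocyte sums were higher in every hyperoxia library, as Abca1 and Stard4 were. Many other genes did the same, with 23.8% of all genes tested wholly below air and 22.3% wholly above. The part of these markers in the changes of the sterol genes was not tested.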

How the data were processed

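PolyA RNA of the left hippocampus of 3 air-exposed and 3 hyperoxia-exposed mice was sequenced as strand-specific paired-end libraries. The signal used is the deposited normalized count, for which the authors divided the read counts of each library by 1 size factor. Per the submitters' processing notes the tools were FastQC, STAR 2.5.3a, HTSeq and DESeq2. The genome build, the annotation and the strand setting of counting were not given in the sources used here. A second deposited table holds the authors' own fold changes and p-values. It has the word oil in its name for both groups and was not used.

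Divided by the value that 1 read takes in its library, 100% of the values came within 0.01 of whole numbers, so reads were recovered. On these reads edgeR 4.0.16 (quasi-likelihood) called 5501 genes and DESeq2 1.42.0 (Wald) called 5611. The median tested gene held 449 to 576 reads, and the variation among mice limits precision more than counting does. Replicates differed by more than sampling noise (chi-square per gene 6.51 to 47.2), and none was counted as a repeat.

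For the 17778 genes whose mean reached 10, log2(normalized count + 1) was fitted with limma 3.58.1 in R 4.3.3, its trend option on, as hyperoxia minus air. P-values were adjusted by Benjamini-Hochberg, with a threshold of 0.05. Fold changes on this scale understate those of low genes. In addition to both count tests, the settings changed were the pseudocount (0.5 or 5), the filter (none, or a mean of 50), the scaling (quantile or TMM), the trend (off), a correction for length and GC content (mgcv 1.9.3, 17735 genes), and each library left out in turn. The scripts were tested on simulated data. Lengths, positions, overlaps and shared 50-base stretches came from GENCODE M21 on GRCm38 (99.7% of identifiers matched, 84.8% in the same version), and promoters from RefSeq.

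The 32 genes, the lists and the rule for naming genes were chosen with earlier results of these data known. All 32 are named; every called gene and the gene with most reads in each group is given in all libraries, and from each of the 6 related lists the called genes that rose most and fell most, except for 1 that is not reported here. Labels put each mouse in a group, but columns could not be tied to single mice.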

Additional observations from a re-analysis of the deposited data

How the results depend on the processing

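All 16 alternative settings chosen at the start were run. The calls of Pmvk, Abca1, Nr1h3 and Stard4 held in every one of them, and both edgeR and DESeq2 called the same 10 genes as limma. The count of all genes called was 3048 to 7756 with single libraries left out (17.1% to 43.6% of genes tested), against 5425 (30.5%). The share of all genes called was 23.8% with limma without the trend and 31.4% after correction for length and GC content. The counts of sterol genes below are to be read beside these shares. Synthesis had 5 genes called, 3 with limma without the trend, and 1 to 11 with single libraries left out. Sterol sensing had 2 genes called and 0 with limma without the trend, where 2 of 5 had an unadjusted p below 0.05 and where edgeR and DESeq2 each called 2. It had 0 to 2 with single libraries left out, the 0 arising without air 1, air 3 or hyperoxia 1, each with 2 of 5 at an unadjusted p below 0.05. Handling had 3 genes called, and 3 to 6 with single libraries left out. After correction for length and GC content synthesis had 4, sterol sensing 3 and handling 4. The lowest counts of sterol genes came without air library 1 (4 of 32) and the highest without hyperoxia library 2 (19 of 32), and the cause was not tested.

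Reversed signs were seen in genes that were not called, under these settings. They were Mvk at 0.0047 and Mvd at 0.14 after the correction for length and GC content, and Mvd at 0.013, Cyp51 at 2.6e-05 and Insig2 at 0.0063 without hyperoxia library 1. Over all omissions of single libraries, the log2 fold change ran from -0.11 to 0.013 for Mvd, from -0.091 to 2.6e-05 for Cyp51 and from -0.054 to 0.0063 for Insig2. Over single genes and settings, 464 results kept their side of the threshold and their sign, 14 gained a call, 29 lost one and 5 changed sign. The medians of synthesis and handling moved by less than their spread between libraries in all settings.

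No paired analysis was possible because the labels give the 2 groups no replicate numbers in common and the columns carry numbers that are not those of animals. With 3 mice per group, a gene that did not pass is not shown to be unchanged. Strand and build of the counting are not known, and 7 of the 32 genes, which share exons with another gene of the table, are less certain. For Tm7sf2 and Nr1h3 that other gene lies on the same strand, so the strand setting would not separate them. The other gene had a mean value of only 1.95 for Nr1h3 and 6.26 for Scap. Acat2, Idi1 and Fdps are not among the 7 and are uncertain for the shared sequence given above.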

Other observations

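Ttr, which encodes the transport protein transthyretin and is the leading marker of choroid plexus, had normalized read counts of 272, 167 and 887 across air libraries 1 to 3, and 350.0, 183 and 7454 across hyperoxia libraries 1 to 3. It was singled out after its values were seen. The difference between groups did not pass (log2 fold change 1.19, adjusted p = 0.463), and the value of hyperoxia library 3 stood far above the others. All 6 choroid plexus markers lay above their air mean in that library (median log2 difference 2.15). Abca1 and Stard4 had no such single high library.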
